A study of Mus musculus with 9 samples.

Results

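Sox9 and 6 further genes that mark kidney progenitor or regenerating tubule cells (Sox4, Pax2, Pax8, Lhx1, Cd24a and Prom1) were followed in mouse primary renal tubular epithelial cells (TECs). The 7 genes were picked by symbol from 31167 genes in the deposited table, and all 7 had a mean of at least 0.5 FPKM (fragments per length of transcript and depth of library) over the libraries, as did 13985 genes in all. RNA-Seq was performed on 9 libraries, with 3 libraries in each of the Sham, hypoxia/reoxygenation (H/R) and EGR1OV groups, all from kidney TECs of C57BL/6 mice grown to partial confluence. Sham cells were the unstressed comparison. H/R cells, which model ischemia-reperfusion injury in a dish, were kept at 1.0% oxygen in glucose-free medium for 6 h and then returned to complete medium for 18 h. EGR1OV cells overexpressed the immediate-early transcription factor EGR1 from a plasmid with the CMV promoter, delivered with EndoFectin Max. By the study's figure legend the plasmid was given in place of H/R, and Sham cells had neither, so transfection itself and EGR1 cannot be told apart. Its methods, however, describe plasmid transfection of such cells ahead of H/R. Whether EGR1OV cells also had H/R is therefore not settled, and the legend is followed here. Whether replicates were separate cultures or animals is not given in the sources used here, and p-values then measure only the spread between these libraries, which may be technical.

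SOX9 is a transcription factor of the SOX family that acts in the growing ureteric bud and nephron, is low in most resting tubules and is switched on in tubule cells after injury. PAX2, PAX8 and LHX1 specify the renal lineage in the embryo, and PAX2 and PAX8 persist in part of the adult tubule. CD24 and CD133, the products of Cd24a and Prom1, are surface glycoproteins used together to mark scattered progenitor-like cells in kidney tubules.

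Relative to Sham, EGR1OV cells had more Sox9, Sox4 and Pax2 and less Lhx1, Cd24a and Prom1, while Pax8 did not pass the test. H/R cells had more Sox9, and to a smaller extent more Lhx1, with no change called for Pax2. The Sox9 levels of EGR1OV and H/R overlapped, whereas their Lhx1 levels lay on opposite sides of Sham. A gene was called when its limma adjusted p was under 0.05 and its change on the log2(FPKM + 1) scale passed 1.3-fold, or 1.2-fold where H/R was set against Sham. By both limits, only Sox9 and Lhx1 were called in EGR1OV against Sham, and only Sox9 in H/R against Sham. The other changes named here passed by adjusted p alone, and the H/R call of Sox9 was close to its threshold. The plot of FPKM by library shows these levels.

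**Figure D1:**
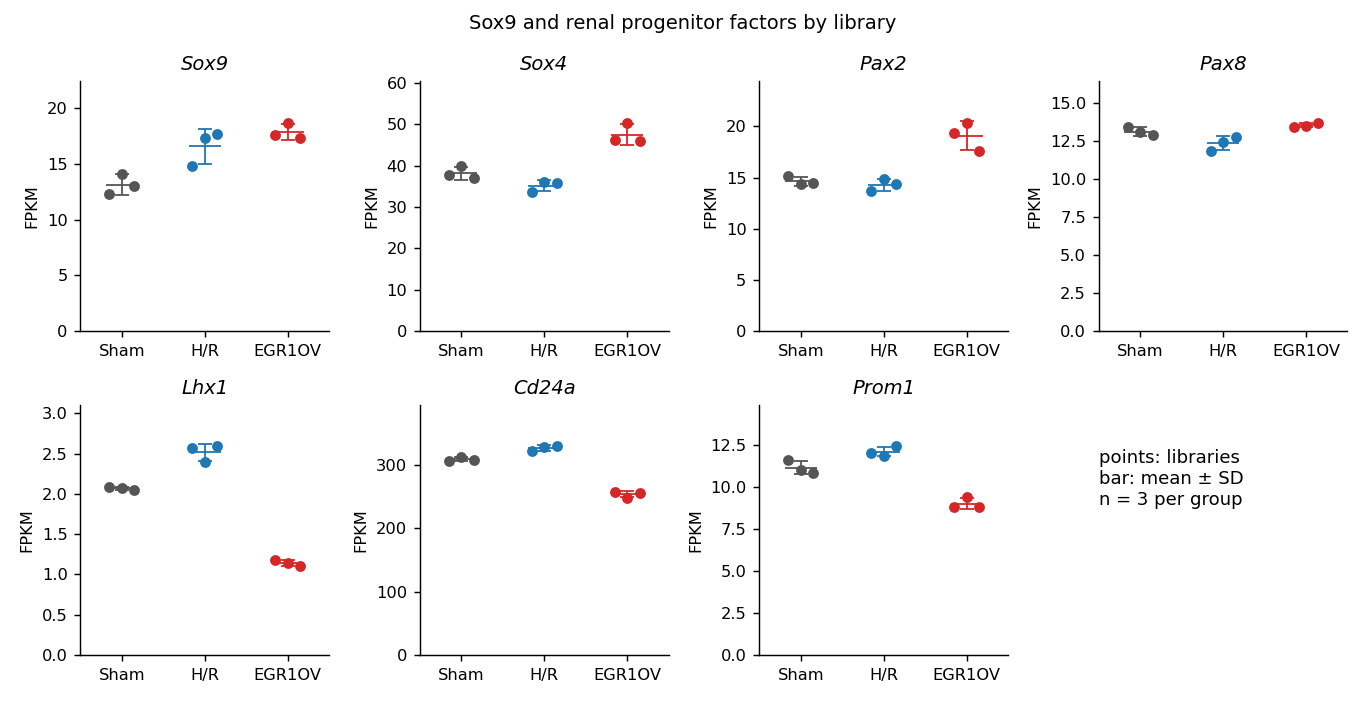
FPKM of Sox9, Sox4, Pax2, Pax8, Lhx1, Cd24a and Prom1 (y axis, from 0, a separate scale for each gene) in the 3 libraries of Sham, H/R and EGR1OV (points), with the mean and SD (bars). The EGR1OV points of Sox4 and Pax2 sit above those of both other groups, while those of Lhx1, Cd24a and Prom1 sit below them, and Sox9 is higher than Sham in both treated groups.

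To show the stretches that precede the start sites of members which moved in opposite directions, a promoter window is printed for Sox4 and Pax2, which rose in EGR1OV, for Lhx1, which fell, and for Pax8, which did not pass the test. Each is the 250 bases before a RefSeq start site (build GRCm38.p6), read 5′ to 3′ on the strand of the gene. The windows are chr13:28953700-28953949 (minus) for Sox4, chr19:44755502-44755751 (plus) for Pax2, chr2:24475600-24475849 (minus) for Pax8 and chr11:84525535-84525784 (minus) for Lhx1. Capitals mark matches on either strand to the letters GNGGGNG, a loose core of the GC-rich element that EGR1 binds, and overlapping matches run together.
Sox4: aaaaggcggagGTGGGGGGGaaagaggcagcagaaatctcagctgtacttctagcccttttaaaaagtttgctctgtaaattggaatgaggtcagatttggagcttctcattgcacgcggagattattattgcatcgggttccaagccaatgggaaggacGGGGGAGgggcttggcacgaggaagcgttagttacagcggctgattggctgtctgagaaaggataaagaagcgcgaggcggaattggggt
Pax2: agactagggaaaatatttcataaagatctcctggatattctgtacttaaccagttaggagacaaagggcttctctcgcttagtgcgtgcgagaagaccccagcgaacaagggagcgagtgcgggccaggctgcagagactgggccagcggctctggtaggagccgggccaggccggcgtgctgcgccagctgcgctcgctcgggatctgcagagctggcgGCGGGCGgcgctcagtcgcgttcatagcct
Pax8: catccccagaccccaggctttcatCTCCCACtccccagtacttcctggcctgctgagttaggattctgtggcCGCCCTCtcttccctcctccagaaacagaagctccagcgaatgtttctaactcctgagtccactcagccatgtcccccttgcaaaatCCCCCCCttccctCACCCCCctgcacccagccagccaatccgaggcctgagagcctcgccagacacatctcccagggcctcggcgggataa
Lhx1: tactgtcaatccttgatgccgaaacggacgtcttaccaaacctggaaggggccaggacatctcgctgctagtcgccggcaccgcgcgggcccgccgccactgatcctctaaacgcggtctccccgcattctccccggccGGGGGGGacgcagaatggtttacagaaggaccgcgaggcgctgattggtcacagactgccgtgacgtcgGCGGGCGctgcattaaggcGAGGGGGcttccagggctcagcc
The loose core occurred 3 times before Sox4, 1 time in the Pax2 window shown (4 and 9 times in the other 2 windows of Pax2), 4 times before Pax8 and 3 times before Lhx1, on both strands counted together. It was no mark of these genes, since 60.3% of 32851 RefSeq windows of the same length held it. The longer element GCGNGGGCG, which contains the core, was in 4.7% of all windows and in none of those of Sox4, Pax2, Pax8, Lhx1 and Prom1. Of the short letters found in hypoxia response elements, ACGTG (16.6% of all windows) was in none of their windows, and GCGTG (28.2%) was in the Sox4 window and in all 3 Pax2 windows. These matches describe letters in a short window and say nothing on where EGR1 or another factor was bound. Windows were matched for 5 of the 7 genes, and not for Sox9 and Cd24a.

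Egr1 itself checked the labels. It measured 6.20, 6.91 and 6.09 FPKM in Sham, 8.57, 7.59 and 7.48 in H/R, and 45.7, 42.2 and 40.1 in EGR1OV. Every EGR1OV library was thus far above the others, with a mean 6.66 times that of Sham (log2 change 2.56, SE 0.07, limma adjusted p 2.19e-09), and reads from the plasmid and from the cells' own gene cannot be told apart. The libraries held between 16183617 and 18384022 reads by recovery from the FPKM steps, where 94.0% of 162951 values of up to 1000 reads were whole within 0.02 read. The number of reads on a member ran from 76 (Lhx1 in EGR1OV) to 15595 (Cd24a in H/R). Gm23935, a short gene model of the miRNA class, varied from 1494 to 21700 FPKM among libraries and overlapped between groups (0.489 times Sham in EGR1OV and 1.77 times in H/R by group mean, each with an exact permutation p of 0.5). The epithelial markers Epcam, Cdh1, Cdh16, Krt8 and Krt18 were all detected and summed to between 1861 and 1900 FPKM in Sham. Of the proximal tubule genes, Slc22a6 was at 0 in all 9 libraries, Slc34a1 had 0 to 3 reads and Slc5a2 0 to 4 reads a library, whereas Lrp2 had 968 to 1052 reads in each Sham library, and Cubn and Aqp1 were also detected. The thick limb marker Umod was at 0. Of the calls over all genes, 60.3% were higher in EGR1OV than in Sham as deposited and 45.9% after quantile normalization. For H/R against Sham, 37.7% were higher as deposited and 57.9% after median-ratio scaling, and for EGR1OV against H/R 63.2% as deposited and 42.5% after quantile normalization.

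To ask how Sox9 differed from Sham in EGR1OV and in H/R, its levels were compared first. Sox9 (ENSMUSG00000000567, protein coding, chr11:112782224-112787760 on the plus strand in the deposited table, whose positions for the 7 genes equal GRCm38 gene models) measured 12.3, 14.1 and 13.0 FPKM in Sham, 14.8, 17.3 and 17.7 in H/R, and 17.6, 18.7 and 17.3 in EGR1OV. All 6 treated libraries lay above all 3 Sham libraries, although the lowest H/R library exceeded the highest Sham library by little. The mean stood at 13.1 ± 0.916 (SD, n = 3) in Sham, at 16.6 ± 1.57 in H/R and at 17.9 ± 0.715 in EGR1OV, from 836 to 1314 reads a library. EGR1OV was 1.36 times Sham (log2 change 0.42, SE 0.07, limma adjusted p 0.000973) and H/R was 1.26 times Sham (log2 change 0.31, limma adjusted p 0.0227). Both contrasts use the same Sham libraries. The exact permutation p was 0.1 for each, the smallest that 3 against 3 libraries can give. The direct contrast of EGR1OV with H/R gave a log2 difference of 0.11 with a 95% interval from -0.05 to 0.26, overlapping libraries and a limma adjusted p of 0.240, so that a difference of either sign within that interval is possible.

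The H/R call of Sox9 was close to its threshold. The limma adjusted p was 0.0731 without Sham replicate 1, 0.0683 without Sham replicate 3, 0.0712 without H/R replicate 2 and 0.0753 without H/R replicate 3, and 0.0506 when only Sham and H/R entered the fit. The EGR1OV call kept its adjusted p under 0.05 in all 20 alternatives, but the change was under 1.3-fold without Sham replicate 1 (log2 change 0.38) and after quantile normalization (0.32).

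Sox4, a SOX factor of the C subgroup with broad roles in embryonic progenitors, behaved otherwise after H/R. Sox4 (ENSMUSG00000076431, an intronless protein coding gene at chr13:28948919-28953713, minus strand) measured 37.6, 39.9 and 37.0 FPKM in Sham, 33.6, 36.0 and 35.8 in H/R, and 46.3, 50.4 and 45.9 in EGR1OV. The 3 groups did not overlap, with H/R lowest and EGR1OV highest. EGR1OV was 1.24 times Sham (log2 change 0.31, SE 0.05, limma adjusted p 0.000469), which passed the test but not the fold limit. It was 1.35 times H/R (log2 change 0.42, limma adjusted p 5.32e-05), a call that passed both limits but was under the fold limit after median-ratio scaling (0.36) and quantile normalization (0.34). H/R against Sham did not pass (log2 change -0.12, limma adjusted p 0.133).

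Pax2, the paired box factor that drives early nephron formation, rose in EGR1OV as Sox4 did. Pax2 (ENSMUSG00000004231, chr19:44756045-44837871, plus strand) measured 15.1, 14.4 and 14.4 FPKM in Sham, 13.7, 14.9 and 14.4 in H/R, and 19.4, 20.4 and 17.6 in EGR1OV. Sham and H/R overlapped and all EGR1OV libraries were higher than both. EGR1OV was 1.31 times Sham (log2 change 0.36, SE 0.05, limma adjusted p 0.000431), just under the fold limit on the log2(FPKM + 1) scale, and it passed that limit without Sham replicate 1 (0.38) and without EGR1OV replicate 3 (0.42). Against H/R it was 1.34 times as high (log2 change 0.39, limma adjusted p 0.000223), a call whose fold was under the limit without H/R replicate 1 (0.36) or EGR1OV replicate 2 (0.35), and after median-ratio scaling (0.33) or quantile normalization (0.27).

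Pax8, the partner of Pax2 and a lasting marker of renal epithelium, had the smallest change of the 7 genes in EGR1OV against Sham. Pax8 (ENSMUSG00000026976, chr2:24420560-24475599, minus strand) measured 13.4, 13.0 and 12.8 FPKM in Sham, 11.8, 12.4 and 12.7 in H/R, and 13.4, 13.5 and 13.7 in EGR1OV. The H/R libraries were all below those of the other groups. EGR1OV overlapped Sham (log2 change 0.04, 95% interval -0.03 to 0.12, limma adjusted p 0.348, exact permutation p 0.2), and H/R lay below Sham without passing the test (log2 change -0.08, limma adjusted p 0.159). EGR1OV was 1.10 times H/R (log2 change 0.12, limma adjusted p 0.0139), a difference that turned to -0.01 after quantile normalization.

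Lhx1, a LIM homeodomain factor of the nephric duct and the early nephron, was the least abundant of the 7 genes and changed the most in EGR1OV. Lhx1 (ENSMUSG00000018698, chr11:84518284-84525535, minus strand) measured 2.09, 2.07 and 2.05 FPKM in Sham, 2.56, 2.39 and 2.59 in H/R, and 1.18, 1.14 and 1.11 in EGR1OV. The groups were fully separate, with SDs of 0.0190, 0.108 and 0.0370 FPKM. Lhx1 fell in EGR1OV to 0.553 times Sham (log2 change -0.52, SE 0.05, limma adjusted p 3.40e-05) and to 0.455 times H/R (log2 change -0.71, limma adjusted p 3.43e-06). These values rest on 138 to 147 reads a library in Sham, 169 to 187 in H/R and 76 to 80 in EGR1OV. After H/R it was 1.21 times Sham (log2 change 0.19, limma adjusted p 0.0410), which passed the test but not the fold limit on the log2(FPKM + 1) scale. With 0.1 in place of 1 added to FPKM it passed both limits (log2 change 0.27, limma adjusted p 0.0490). The adjusted p was under 0.05 in only 5 of 19 alternatives.

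The 2 surface markers fell in EGR1OV as Lhx1 did. Cd24a (ENSMUSG00000047139, chr10:43578284-43584265, plus strand), which encodes a small lipid-anchored glycoprotein, measured 307, 312 and 308 FPKM in Sham, 321, 329 and 329 in H/R, and 257, 248 and 256 in EGR1OV. EGR1OV was below both other groups in every library. The mean fell to 0.822 times Sham (log2 change -0.28, SE 0.02, limma adjusted p 8.88e-06) and to 0.778 times H/R (log2 change -0.36, limma adjusted p 1.47e-06), both under the fold limit, although the second passed it once values were quantile normalized (-0.38) or scaled by median ratios (-0.43). H/R was above Sham in every library by 1.06 times (limma adjusted p 0.0564).

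Prom1 (ENSMUSG00000029086, chr5:43993620-44102032, minus strand), which encodes a pentaspan protein of membrane protrusions, measured 11.6, 11.0 and 10.9 FPKM in Sham, 12.0, 11.9 and 12.4 in H/R, and 8.82, 9.38 and 8.83 in EGR1OV. The 3 groups were separate and in the same order as for Cd24a. Prom1 fell to 0.808 times Sham (log2 change -0.28, SE 0.04, limma adjusted p 0.000300) and to 0.744 times H/R (log2 change -0.39, limma adjusted p 3.16e-05). The drop against H/R was just past the fold limit and went under it without H/R replicate 3, EGR1OV replicate 1 or EGR1OV replicate 3 (log2 change from -0.38 to -0.37).

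**Figure D2:**
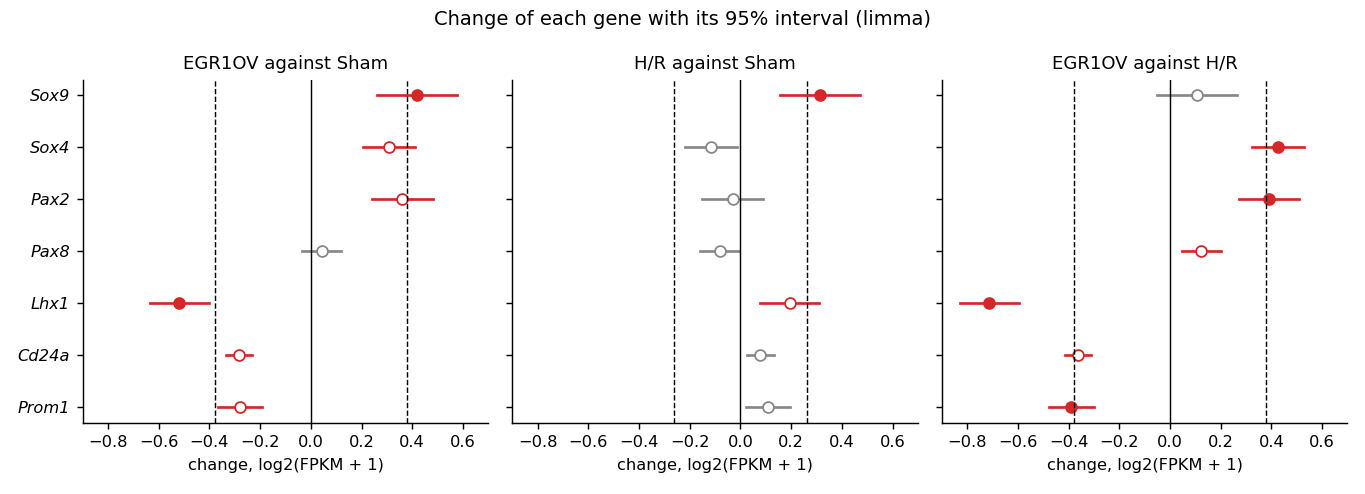
Change of each of the 7 genes on the log2(FPKM + 1) scale (x axis, points) with its 95% interval (lines) in 3 contrasts, where red marks an adjusted p under 0.05, filled points also pass the fold limit (dashed lines) and grey marks genes that did not pass. Sox9 is the only filled point in H/R against Sham, and Lhx1 has the largest change in both contrasts of EGR1OV.

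Counted together, 2 of the 7 genes were called in EGR1OV against Sham, where 16.4% of all genes tested were called. They were Sox9, which was higher as were 9.87% of all genes, and Lhx1, which was lower as were 6.51%. With the adjusted p alone 6 of 7 passed, against 45.9% of all genes, with 3 higher (26.1% of all genes) and 3 lower (19.8%), and 6 of 7 had groups that did not overlap, against 55.7%. In H/R against Sham 1 of 7 was called, against 4.25% of all genes, with 1 higher (1.6%) and 0 lower (2.65%). That gene was Sox9, which the study had picked from genes that differed from Sham in both treated groups of these same data. Its calls against Sham are therefore not independent of that choice. By adjusted p alone 2 of 7 passed, against 11.7%, with 2 higher (4.15%) and 0 lower (7.54%), and 6 of 7 did not overlap, against 33.6%. In EGR1OV against H/R 4 of 7 were called, against 18.9%, with Sox4 and Pax2 among the 11.9% called higher and Lhx1 and Prom1 among the 6.94% called lower. There 6 of 7 passed by adjusted p alone, against 51%, with 3 higher (32%) and 3 lower (19%), and 6 of 7 did not overlap, against 58.6%. Although limma called 0 of them lower after H/R, 2 (Sox4 and Pax8) were lower at an unadjusted p under 0.05, and voom on recovered reads called 0 of them lower by both limits, with an adjusted p of 0.0499 for Sox4. The median change of the 7 genes was 0.04, 0.08 and 0.11 on the log2 scale in these contrasts, beside 0.02, -0.03 and 0.05 for all genes tested.

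In FPKM, which is a level per length, Cd24a led in each group, followed by Sox4, and Lhx1 came last. The middle order changed with treatment. In Sham, Pax2 stood above Sox9, and Sox9 and Pax8 overlapped. In H/R, Sox9 came next after Sox4 with a range that overlapped that of Pax2, and Pax8 overlapped Prom1. In EGR1OV, Pax2 and Sox9 overlapped and both were above Pax8, which was above Prom1.

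Ratios of related genes within a library, which no rescaling of a library can change, were read next. Sox8 is a relative of Sox9 in the SOX E subgroup, and the Sox9 to Sox8 ratio stood at 0.673 ± 0.0285 (SD, n = 3) in Sham, at 0.802 ± 0.0791 in H/R and at 1.08 ± 0.0123 in EGR1OV. Sox9 was thus the less abundant of the pair in Sham and H/R and the more abundant in EGR1OV, where Sox8 also fell, from 19.5 to 16.5 FPKM (log2 change -0.23, limma adjusted p 0.00104). The Sox4 to Sox11 ratio was 1.66 ± 0.0938 in Sham, stood lower at 1.25 ± 0.0715 in H/R and reached 2.31 ± 0.184 in EGR1OV. The Pax2 to Pax8 ratio was 1.12 ± 0.0146, 1.16 ± 0.0331 and 1.41 ± 0.114 in the same order. In all 9 contrasts of these ratios the groups did not overlap, with an exact two-sided permutation p of 0.1 each, the smallest possible here, and 0.1 after adjustment over the 9. No share over other pairs of genes was computed, so this count is a description. Of single genes, 55.7% did not overlap in EGR1OV against Sham, 33.6% in H/R against Sham and 58.6% in EGR1OV against H/R. For Pax2 to Pax8 the separation of H/R from Sham was slight, with 1.1312 as the lowest H/R value and 1.1281 as the highest Sham value.

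**Figure D3:**
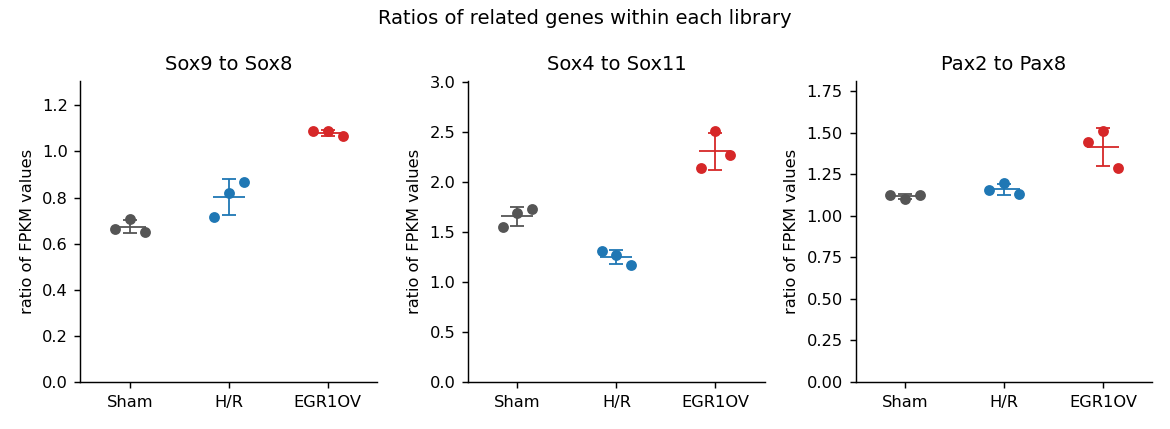
Ratio of FPKM values of related genes within each library (y axis, from 0) for Sox9 to Sox8, Sox4 to Sox11 and Pax2 to Pax8 in Sham, H/R and EGR1OV (points), with mean and SD (bars, n = 3). The Sox9 to Sox8 ratio passes 1 only in EGR1OV, and the Sox4 to Sox11 ratio is lowest in H/R and highest in EGR1OV.

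To place the factors in their families, the SOX family and the PAX and LHX families were listed. Of 19 SOX genes listed, 18 were in the table and 8 were tested. Sox7, which acts in endothelium and endoderm, averaged 0.252 FPKM without treatment, 0.421 after H/R and 1.49 with EGR1, on 42 reads over the Sham libraries and 244 over the EGR1OV libraries. Sox7 passed the level filter only through EGR1OV, where it was high, and its values are a description. After H/R, the mean of Sox11, a relative of Sox4 in the SOX C subgroup, went from 23.1 to 28.2 FPKM (log2 change 0.27, limma adjusted p 0.0316, and 0.0828 without the level filter). That of Sox12, of the same subgroup, went from 2.94 to 2.22 FPKM (log2 change -0.30, limma adjusted p 0.0426, and 0.111 without the filter). Both passed as fitted but depended on the settings, with the Sox11 call standing in 10 of 19 alternatives and the Sox12 call in 6 of 18, and libraries of all 3 groups were among those whose omission ended the Sox12 call.

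Of 17 PAX and LHX genes listed, 15 were in the table and 4 were tested, namely Pax2, Pax8, Lhx1 and Lhx9. Lhx9, a gonad and limb factor, was at 0.748 FPKM in Sham and fell to 0.440 in EGR1OV (log2 change -0.28, limma adjusted p 0.0161), and against H/R the fall was called (log2 change -0.42, limma adjusted p 0.00147). Pax5, the B cell factor of the PAX2, PAX5 and PAX8 subgroup, was below the level filter and is named because of its values. It had 0, 2 and 0 reads in Sham, 1, 0 and 1 in H/R, and 114, 120 and 115 in EGR1OV. Summed over libraries, it had 349 reads in EGR1OV and 2 in Sham. As Pax5 was picked for this difference, its values are a description and no test is drawn from them. All 3 EGR1OV libraries showed it, at 0.775 FPKM in EGR1OV replicate 1, against 13.4 to 13.7 FPKM for Pax8 and 17.6 to 20.4 FPKM for Pax2 in the same group.

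Among 34 regulators of nephron development, 23 were tested, and in EGR1OV against Sham 1 was called higher and 2 lower, against 9.87% and 6.51% of all genes. By adjusted p alone 10 were higher and 5 lower, against 26.1% and 19.8%. Sall1, a zinc finger factor of the nephron progenitor, rose from 8.40 to 11.5 FPKM (log2 change 0.41, limma adjusted p 0.000901), a change under the fold limit after quantile normalization (0.30) and without EGR1OV replicate 2 (0.34). Bmp7, a survival signal of the nephron progenitors, fell to 0.336 times its Sham mean of 6.56 FPKM (log2 change -1.24, limma adjusted p 2.52e-08), and Wnt4, which triggers the change of mesenchyme to epithelium, fell from 1.66 to 0.913 FPKM (log2 change -0.48, limma adjusted p 0.00324). The list median was 0.09, beside 0.02 for all genes. After H/R the single call, where 1.6% of all genes were called higher, was Wnt11, a ureteric tip signal, which rose from 1.31 to 2.32 FPKM (log2 change 0.52, limma adjusted p 0.00760).

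Of 20 markers of progenitor or dedifferentiated tubule cells, 19 were tested, and by both limits 5 rose and 6 fell in EGR1OV, against 9.87% and 6.51% of all genes, with a median of -0.32 beside 0.02 for all genes. The adhesion receptor Vcam1 rose from 2.51 to 10.3 FPKM (log2 change 1.68, limma adjusted p 1.71e-09) and Ly6a, which encodes the stem cell antigen SCA-1, from 106 to 323 FPKM (log2 change 1.60, limma adjusted p 2.16e-08). The simple-epithelium keratins Krt19 and Krt18 fell by 0.92 and 0.73 on the log2 scale, with limma adjusted p of 3.52e-08 and 1.77e-07. The list thus held genes that rose and genes that fell. After H/R 4 markers rose and 0 fell by both limits, against 1.6% and 2.65% of all genes, although Krt18 passed by adjusted p alone (log2 change -0.18, limma adjusted p 0.0132). Those that rose were Aldh1a3 (1.42 to 3.24 FPKM, log2 change 0.81, limma adjusted p 0.00171), Vcam1 (log2 change 0.54, limma adjusted p 0.000209), Cd44 (log2 change 0.42, limma adjusted p 0.000451) and Epcam (log2 change 0.33, limma adjusted p 0.000600).

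**Figure D4:**
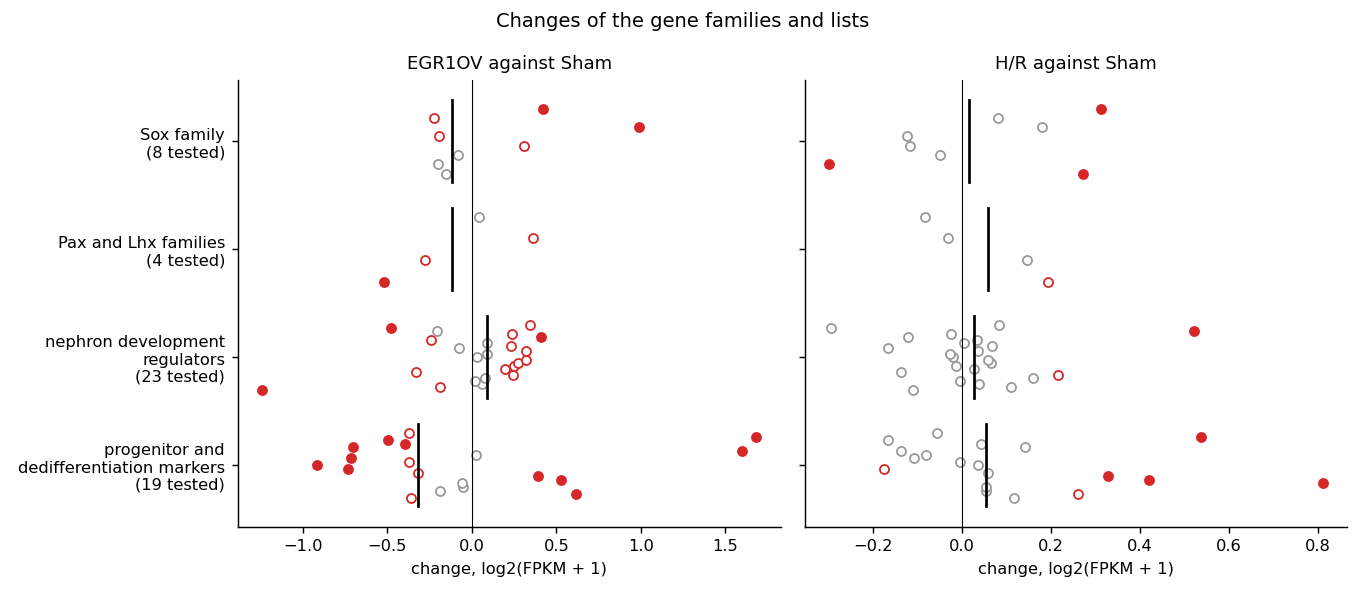
Change against Sham on the log2(FPKM + 1) scale (x axis, a separate scale for each panel) for every tested gene of 4 lists, in EGR1OV (left) and H/R (right), where filled red points pass the adjusted p and the fold limit, open red points pass the adjusted p only, grey points pass neither and black bars are list medians. Progenitor and dedifferentiation markers spread to both sides in EGR1OV, and the 4 of them that were called after H/R lie to the right of 0.

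Genes that SOX9 activates in cartilage were mostly below the level filter. Of 16 listed, 13 were in the table and 2 were tested, Col11a1 and Trpv4, and neither was called against Sham, where EGR1OV had less Col11a1 (1.19 to 0.754 FPKM, log2 change -0.32, limma adjusted p 0.00276, under the fold limit). After H/R the limma adjusted p was 0.0624 for Col11a1 and 0.984 for Trpv4. Among the genes below the filter, Col9a3 is named because of its values. It had 18, 13 and 11 reads in Sham, 10, 25 and 14 in H/R, and 47, 52 and 46 in EGR1OV, which is a description.

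Markers of other cell types moved in the same libraries. All 8 leukocyte markers tested, of 9 listed, fell in EGR1OV, where 6.51% of all genes were called lower, and their sum ran from 151 to 156 FPKM in Sham, from 129 to 134 in H/R, where 2 of the 8 were called lower (2.65% of all genes), and from 30.6 to 34.3 in EGR1OV. The H/R calls were those of Adgre1 and Lyz2, which stood in 8 of 18 and 14 of 19 alternatives. CD24 is also carried by B cells and neutrophils, and the part of these cells in the lower Cd24a was not tested. In bulk RNA, fewer cells of a type and less RNA per cell cannot be told apart. Endothelial markers summed to between 11.1 and 12.0 FPKM in Sham and between 8.29 and 8.68 in EGR1OV, with 1 of 5 called lower (6.51% of all genes). Fibroblast markers summed to between 32.8 and 34.5 FPKM in Sham, 39.3 and 40.6 in H/R, and 37.9 and 42.9 in EGR1OV. Of the 4 tested, 2 were called higher in H/R (1.6% of all genes) and 1 in EGR1OV (9.87%). The H/R calls were those of Col1a1 and Col1a2, which stood in 13 and 19 of 19 alternatives. The 2 proximal tubule markers tested, Lrp2 and Aqp1, both fell in EGR1OV, and their list summed to between 5.44 and 5.53 FPKM in Sham and between 1.92 and 2.21 in EGR1OV. Hsd11b2, the single distal nephron marker tested, had a mean of 30.3 FPKM in EGR1OV and 24.7 FPKM in H/R, both called higher than the 16.0 FPKM of Sham. Epithelial markers summed to between 1198 and 1303 FPKM in EGR1OV, with Epcam called higher and Krt8 and Krt18 lower. The part of these shifts in the changes of Sox9, Lhx1 and Prom1 was not tested.

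Genes near the 7 loci were then read for change alongside them, with 32 genes within 100 kb in all, of which 12 were tested. Lhx1os, a noncoding gene that starts 125 bases from Lhx1 on the opposite strand, was at 1.94 ± 0.331 FPKM in Sham and fell to 0.832 ± 0.268 in EGR1OV (log2 change -0.69, limma adjusted p 0.0258), the direction of Lhx1, on 68 and 29 reads summed over libraries. It did not rise with Lhx1 in H/R (1.78 ± 0.797 FPKM, log2 change -0.12, limma adjusted p 0.762), where replicate 2 was at 0.857 FPKM. EGR1OV against H/R did not pass (log2 change -0.56, limma adjusted p 0.0513). As the strand setting of the counting is not given in the sources used here, reads of neighbours on opposite strands may be mixed where the gene models overlap, which applies to Pax2, Pax8 and Prom1. The antisense genes there were low, and 1700039E22Rik inside Pax2, the only tested example, stayed between 1.09 and 1.15 FPKM by group mean. The noncoding gene 2610307P16Rik, 63299 bases from Sox4, rose in EGR1OV (log2 change 0.39, limma adjusted p 0.00511) and in H/R (0.33, limma adjusted p 0.0394), whereas Sox4 did not rise in H/R. Il1rn, the interleukin 1 receptor antagonist 69066 bases from Pax8, rose from 0.972 to 8.27 FPKM in EGR1OV (log2 change 2.23, limma adjusted p 1.97e-08) while Pax8 overlapped Sham. BC006965, the single neighbour of Sox9, had 7, 9 and 2 reads summed over Sham, H/R and EGR1OV and was not tested.

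As a description of likeness, each gene was correlated over the 9 libraries with the other genes of at least 5 FPKM on the log2(FPKM + 1) scale. The 5 genes most like Sox9 were Tjp1 (Pearson r 0.968), Pdgfb (0.963), Clint1 (0.958), Pwp2 (0.954) and Cdh6 (0.954), all higher in both treated groups. Tjp1 encodes a tight junction scaffold, and its mean went from 29.6 FPKM in Sham to 32.5 in H/R and 34.4 in EGR1OV. Cdh6 encodes a cadherin of the early nephron, and its mean went from 22.3 to 24.5 and 26.1 FPKM. Apart from Pax8, the closest gene was Slc46a1 for Sox4 (r 0.993), Mafg for Pax2 (0.991), Txnip for Lhx1 (0.998), Ankrd1 for Cd24a (0.998) and Trio for Prom1 (0.995). Among the 7 genes, Lhx1 tracked Cd24a (r 0.988) and Prom1 (0.982), and Sox4 tracked Pax2 (0.950) and ran opposite to Lhx1 (-0.964). Sox9 was the odd gene, with r between -0.46 and 0.61 with the other 6. The libraries fall into 3 groups of 3, so each r holds differences between group means as well as between libraries.

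**Figure D5:**
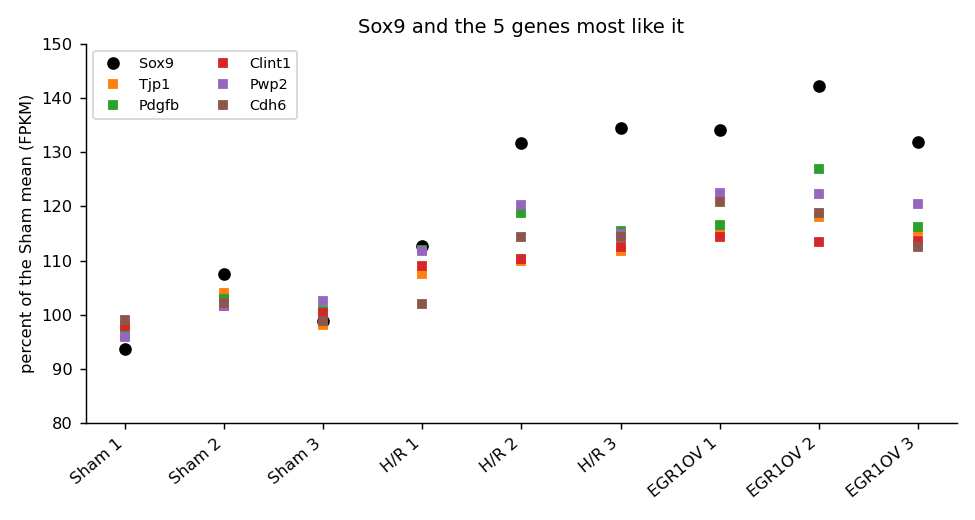
FPKM as a percent of the Sham mean of the same gene (y axis, from 80 to 150 and not from 0) in each of the 9 libraries (x axis) for Sox9 (black circles) and the 5 genes with the highest Pearson r to it (coloured squares). All 6 genes lie above 100 percent in every H/R and EGR1OV library, and Sox9 has the highest group means of the 6.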

How the data were processed

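Total RNA of primary renal TECs was sequenced on an Illumina instrument. The authors deposited 1 table of FPKM values for 31167 genes in 9 libraries. The submitters' processing notes name Bowtie2 2.2.3, HISAT2 2.1.0, TopHat2 and the mm9 build, without roles, but 94.6% of gene positions in the table, the 7 genes included, equal GENCODE M21 (GRCm38). Strand handling and the filter on reads are not given in the sources used here.

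FPKM values were tested as log2(FPKM + 1) for the 13985 genes whose mean reached 0.5 FPKM, using limma 3.58.1 with trend (R 4.3.3), a single fit of all 9 libraries and Benjamini-Hochberg adjustment. A fold change on this scale understates the change of low genes. Calls needed an adjusted p under 0.05 and 1.3-fold (1.2-fold for H/R against Sham). Single values were compared by exact two-sided permutation. Reads were recovered from the FPKM steps, and replicates differed by more than sampling noise, so none were merged. Symbols turned into dates (26 genes) were restored. The table also held the authors' annotation columns, which were used for names and positions only. The fits were tested on simulated data with 1.5-fold and 2-fold changes. Of the 1.5-fold changes, 66.3% were recovered in EGR1OV against Sham and 67.4% in H/R against Sham. The simulated reads had a variance over mean of 1.61. Real replicate pairs had a chi-square per degree of freedom from 2.03 to 3.83, so recovery may be lower in the data. Smaller changes, such as those of Sox9, were not simulated.

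The 7 genes, the gene lists and the tests were chosen with earlier results of these data known. Named genes were all 7 members, Egr1, called members of each list (up to 4 by size of change in each comparison), the genes most like each member (that of Pax8 is not reported here) and neighbours within 100 kb. Pax5 and Col9a3 were added after their values were seen. Alternatives changed the pseudocount (0.1), the filter (none or 5 FPKM), the scaling, the trend, the samples in the fit, the fold limit, a replicate block, the use of voom on recovered reads and each library in turn. Promoter windows came from RefSeq.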

Additional observations from a re-analysis of the deposited data

How the results depend on the processing

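Over 20 alternatives in each of the 3 contrasts, 50 values of Sox9 kept direction and side of the threshold, 9 lost the call and 1 changed sign. The number of the 7 genes called in EGR1OV against Sham, 2 as reported, was 6 with no fold threshold and 1 with a mean of at least 5 FPKM, where Lhx1 was not tested, and 2 to 3 without single libraries. In H/R against Sham, 1 as reported, it was 2 with no fold threshold, 2 with a pseudocount of 0.1, and 0 with no filter on low values, with only the compared groups in the fit and with the Gm23935 covariate, which was chosen after seeing the data. It ran from 0 to 1 without single libraries. The Sox9 change in H/R was 0.31 with no filter (limma adjusted p 0.0627), 0.31 with only the compared groups (0.0506) and 0.31 with the covariate (0.0519), and ran from 0.27 to 0.39 without single libraries. The Sox9 change in EGR1OV against Sham was 0.32 after quantile normalization (adjusted p 0.00518), under the fold limit, and ran from 0.38 to 0.47 without single libraries. EGR1OV against H/R gave a Sox9 difference of -0.0185 after quantile normalization (adjusted p 0.852). Pax8 turned to -0.0662 (EGR1OV against Sham) and -0.00774 (EGR1OV against H/R) after quantile normalization, and Pax2 in H/R to 0.00638 after median-ratio scaling. The causes were not tested. Pax2 and Sox4 against H/R were under the fold limit after median-ratio scaling (0.33 and 0.36) and quantile normalization (0.27 and 0.34). Deviations of same-numbered libraries correlated with r from -0.195 to 0.263, and not every library correlated best with its own number. As each group holds only 3 libraries, these values cannot show whether the numbers paired the libraries. With the replicate block 2, 1 and 4 of the 7 genes were called in the 3 contrasts, as without it, and the Sox9 changes had adjusted p of 0.000576, 0.0178 and 0.130 by limma. Depth limits Lhx1 most, at 76 to 187 reads a library.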
